A study of Mus musculus with 6 samples.

Results

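The GIMAP genes (GTPases of the immunity-associated protein family) were followed in RNA-seq of sorted regulatory T (Treg) cells with and without O-GlcNAc transferase (OGT), the enzyme that adds O-GlcNAc to proteins of the nucleus and cytosol. The members were taken by gene symbol: *Gimap1*, *Gimap3*, *Gimap4*, *Gimap5*, *Gimap6*, *Gimap7*, *Gimap8* and *Gimap9*, which are 8 of the 24420 genes listed. Of the 6 samples, all from female C57BL/6 mice, 3 were of genotype Foxp3YFP-Cre/wtOgtwt/fl (OGT-sufficient) and 3 of genotype Foxp3YFP-Cre/wtOgtfl/fl (OGT-deficient). Both groups carried 1 *Foxp3* allele with the YFP-Cre fusion and at least 1 floxed *Ogt* allele. The labels give lymph nodes as the tissue, and the cells were selected with CD4 beads and then sorted for YFP. The labels give no age, treatment or time point. The methods of the study give a general age range for mice other than its young males, and no age for these samples in particular. *Foxp3* and *Ogt* both lie on the X chromosome, which is randomly inactivated in females, so that YFP marked the Treg cells in which the Cre allele was active, while the YFP-negative Treg cells of the same mouse kept OGT. Whether the floxed allele of the Foxp3YFP-Cre/wtOgtwt/fl mice lay on the chromosome with Cre is not stated, and OGT-sufficient is the study's own name for their YFP+ cells. The comparison asked which transcripts depend on OGT in Treg cells of healthy females, without the changes that inflammation brings.

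GIMAP proteins share a guanine nucleotide-binding AIG1 domain, first known from a plant gene induced by infection, and many are anchored to membranes of lysosomes, mitochondria, the endoplasmic reticulum or lipid droplets. In rodents their genes form a cluster on 1 chromosome and are transcribed mainly in lymphocytes. They are best known for the survival of T cells outside the thymus: rats and mice without a working *Gimap5* lose most peripheral T cells.

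The libraries held between 3375454 and 4103552 counts, of which the ribosomal RNA gene *Rn45s* took 24.2% to 37.1%. The deposited counts were scaled with edgeR's trimmed mean of M-values (TMM) and are printed in CPM, which sets each count against its scaled library. Values of a group are given in the order of its replicates 1, 2 and 3. A single count was worth 0.252 to 0.268 CPM. OGT-sufficient replicate 3 stood apart, with counts in 18346 genes against 14412 to 15197 in the other libraries, and with the highest summed B-cell (331 CPM against 85.6 to 160), neutrophil (211 against 7.81 to 25.01) and erythroid markers (846 against 217 to 481). This library also had counts in 310 of the 1125 olfactory receptor genes listed, against 13 to 56 in the others. All 9 Treg and CD4 T-cell markers were detected in every library, with 719 to 1116 counts of *Foxp3*. All 10 macrophage markers were also detected in every library, and their summed level went from 1368 CPM in OGT-deficient replicate 1 to 5565 CPM in OGT-deficient replicate 3. They include *Vcam1* at 439 to 2249 CPM and the iron exporter gene *Slc40a1* at 155 to 538 CPM, both of which red pulp macrophages of the spleen express, and whether the tissue label holds was not tested. CD8 and NK-cell markers summed to at most 26.5 and 11.5 CPM. The 8 endothelial markers summed to 152 to 223 CPM, of which *Pecam1*, also made by leukocytes, was 140 to 209 CPM, while *Vwf*, *Cdh5* and *Kdr* had 4 to 37 counts and *Emcn* and *Cldn5* were at 0 in all libraries. *Ogt*, the targeted gene, was at 150, 170 and 251 CPM in OGT-sufficient cells and at 84.0, 67.0 and 96.0 CPM in OGT-deficient cells, without overlap between the groups. Its log2 fold change was -1.21 (SE 0.21), with an unadjusted p of 0.000301 and an adjusted p of 0.191 in edgeR's quasi-likelihood test.

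In the GRCm38 assembly (mm10) the members lay within 123.6 kb of chromosome 6, from 48647234 to 48770851. By GENCODE M21, *Gimap8* (chr6:48647234-48660875), *Gimap9* (chr6:48676129-48679114), *Gimap4* (chr6:48684549-48692060), *Gimap7* (chr6:48718621-48724636), *Gimap1* (chr6:48739054-48743795) and *Gimap5* (chr6:48746197-48754210) were on the plus strand. *Gimap6* (chr6:48701582-48708225) and *Gimap3* (chr6:48764464-48770851) were on the minus strand. *Gimap8* encoded the longest protein, with 688 codons, and the others had 291 to 328 codons.

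*Gimap3* and *Gimap5* were the only pair of members that shared transcript windows of 50 bases, the length of 1 read. Their coding sequences were 90.39% identical over the alignment, against 55.72% to 66.59% for all other pairs. Of the 2528 such windows in *Gimap3* transcripts, 190 (7.52%) also occurred in *Gimap5*, where they made up 4.53% of 4195 windows, and all 190 were coding. A stretch that holds part of them is shown because counts of these neighbours can be exchanged there. It covers coding bases 146 to 295 of *Gimap3* and 158 to 307 of *Gimap5*, counted from 1 at the start codon. The strand is that of the coding sequence, from the GRCm38 genome, and the capital marks the only differing position of the 150 bases.
Gimap3: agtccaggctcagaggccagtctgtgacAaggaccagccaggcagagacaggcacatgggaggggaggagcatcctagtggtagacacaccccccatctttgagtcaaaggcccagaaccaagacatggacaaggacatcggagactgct
Gimap5: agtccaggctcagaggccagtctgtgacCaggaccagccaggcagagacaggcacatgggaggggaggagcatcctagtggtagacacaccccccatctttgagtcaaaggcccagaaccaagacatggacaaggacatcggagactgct
The longest run without a difference in the coding sequences was 140 bases. How reads that match both genes were counted is not stated, so the separate values of *Gimap3* and *Gimap5* are uncertain to that extent.

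*Gimap1* overlapped the antisense gene *Gimap1os* over 1107 of its 3073 exon bases (36.02%). It also shared 198 exon bases with the readthrough gene *Gm28053*, which shared 153 with *Gimap5* and 81 with *Gimap7*. Neither *Gimap1os* nor *Gm28053* was in the count table, and without a stated strand setting reads of *Gimap1* and *Gimap1os* cannot be told apart.

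*Gimap4*, which encodes a GTPase linked to the pace of T-cell death, had the highest level of the family in all 6 libraries, and *Gimap5* had the lowest. Levels between genes were compared as CPM per kilobase of exon, with the exons of all coding transcripts pooled. In OGT-sufficient cells *Gimap4* was at 326 ± 41.0 CPM per kb (SD, n = 3) and *Gimap3* at 122 ± 3.99. *Gimap6* followed at 104 ± 4.36 and *Gimap1* at 104 ± 5.63, and the samples of these neighbours overlapped. *Gimap8* at 58.6 ± 7.05 and *Gimap9* at 56.3 ± 3.73 also overlapped. *Gimap7* was at 39.6 ± 4.06 and *Gimap5* at 27.7 ± 1.43, without overlap with each other or with *Gimap9*. The order depends on the length used. The transcript with the longest coding sequence has 1594 bases in *Gimap6*, against 3192 bases of all its exons. Per kilobase of that transcript, *Gimap6* came to 209 CPM per kb and passed *Gimap3* at 147.

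**Figure D1:**
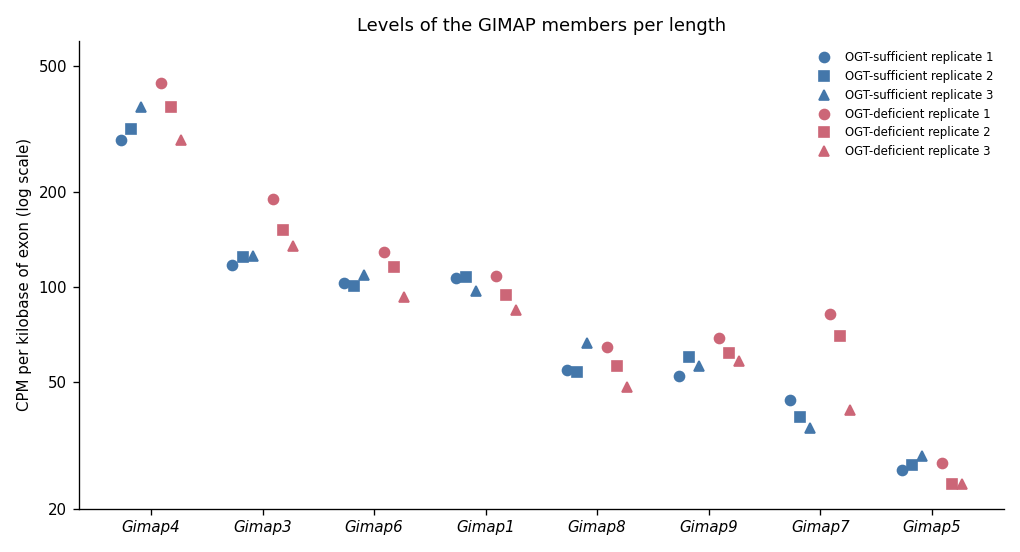
Level of each GIMAP gene in CPM per kilobase of exon (log axis), with 1 point per sample for the 3 OGT-sufficient and the 3 OGT-deficient samples, and genes ordered by the OGT-sufficient mean. *Gimap4* is highest and *Gimap5* lowest in all 6 samples, and *Gimap7* covers a wider range in OGT-deficient samples.

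In OGT-deficient cells the first 4 places and the last were the same, while *Gimap7* was at place 5 instead of 7 and *Gimap9* came before *Gimap8*. *Gimap7* averaged 64.4 CPM per kb there, beside 63.2 for *Gimap9* and 56.4 for *Gimap8*, and the samples of these neighbours overlapped. *Gimap7* was at place 5 in OGT-deficient replicates 1 and 2 and at place 7 in replicate 3.

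None of the 8 members passed an adjusted p (FDR) of 0.1 in the comparison of OGT-deficient with OGT-sufficient cells, where 3 of the 10949 genes tested did (0.0274%). DESeq2 and edgeR's exact test also called 0 members at that threshold, and without the low-count filter 1 was called (*Gimap7*, adjusted p of 0.0286). All 8 members passed the low-count filter. By edgeR's quasi-likelihood test, 2 members (*Gimap7* and *Gimap3*) had an unadjusted p under 0.05, against 7.1% of all genes tested. Both were higher in OGT-deficient cells, where 3.09% of all genes were called in that direction, and no member was called lower, against 4.01% of all genes. For a bulk library, fewer cells of a type and less RNA per cell cannot be told apart. The log2 fold changes of the members ran from -0.14 (*Gimap5*) to 0.70 (*Gimap7*), with 5 of 8 above 0 against 47.3% of all genes. Their median was 0.14, against -0.02 over all genes tested, and their median size without regard to sign was 0.15, against 0.16, not matched for expression level. When libraries were scaled to the *Cd3* genes, 2 of 8 were above 0. The medians were then -0.17 for the members and -0.28 for all genes tested, and the share of all genes above 0 was not computed. Only *Gimap3* had no overlap between the samples of the groups, and 13.2% of all genes had none in either direction.

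**Figure D2:**
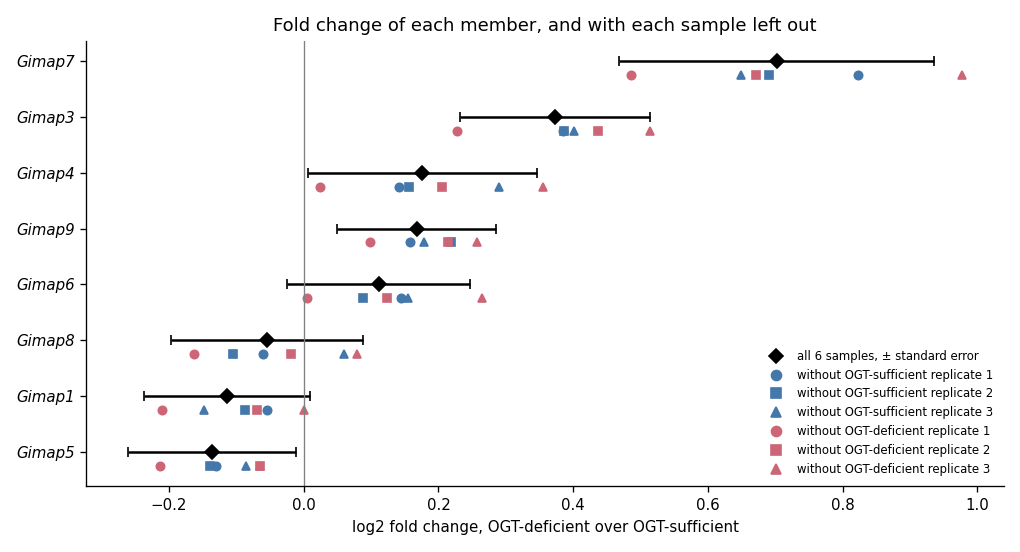
Log2 fold change of each GIMAP gene, OGT-deficient over OGT-sufficient, with standard errors derived from edgeR's F statistic (n = 3 samples per group). Smaller points give the log2 fold change with each sample left out in turn. *Gimap7* (0.70) and *Gimap3* (0.37) lie farthest above 0 among the members.

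*Gimap7*, whose protein pairs with other GIMAP proteins to hydrolyse GTP, had the largest difference. It had 224, 196 and 186 counts in OGT-sufficient cells, which is 59.6, 52.6 and 48.8 CPM. It had 435, 376 and 212 counts in OGT-deficient cells, which is 112, 94.7 and 55.3 CPM. OGT-deficient replicates 1 and 2 were above all other libraries, and replicate 3 was within the OGT-sufficient range. The means were 53.7 ± 5.50 CPM (SD, n = 3) and 87.3 ± 28.9 CPM (SD, n = 3). The log2 fold change of 0.70 (SE 0.23) had an unadjusted p of 0.0151 and an adjusted p of 0.565, and lay at the 98.6th percentile of all genes tested. Without OGT-sufficient replicate 3, the library that stood apart, it was 0.65 with an unadjusted p of 0.0373. Without OGT-deficient replicate 1 it was 0.49 (unadjusted p of 0.0558), and without OGT-deficient replicate 3 it was 0.98 (unadjusted p of 0.000252). Scaled to the *Cd3* genes it was 0.39.

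*Gimap3*, a neighbour of *Gimap5* that influences the segregation of mitochondrial DNA in blood cells of mice, was higher in all 3 OGT-deficient libraries. It was at 304, 320 and 323 CPM in OGT-sufficient cells and at 488, 391 and 346 CPM in OGT-deficient cells. The lowest OGT-deficient library was above the highest OGT-sufficient one. Its log2 fold change was 0.37 (SE 0.14), with an unadjusted p of 0.0264 and an adjusted p of 0.642. It was 0.40 (unadjusted p of 0.0296) without OGT-sufficient replicate 3. Unadjusted p was above 0.05 when OGT-sufficient replicate 1 (0.0517), OGT-sufficient replicate 2 (0.0547) or OGT-deficient replicate 1 (0.13, log2 fold change 0.23) was left out. Without OGT-deficient replicate 3 it was 0.51 (unadjusted p of 0.00705).

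*Gimap5*, the member with the best known role in T-cell survival, was at 51.6, 53.7 and 57.2 CPM in OGT-sufficient cells and at 54.5, 46.6 and 46.7 CPM in OGT-deficient cells, so that the groups overlapped. Its log2 fold change was -0.14 (SE 0.12, adjusted p of 0.851). Counted together as a single gene, which removes an exchange of reads between them but does not restore reads that may have been discarded, *Gimap3* and *Gimap5* were at 355, 373 and 380 CPM in OGT-sufficient cells and at 543, 438 and 393 CPM in OGT-deficient cells. The groups did not overlap in this sum, of which *Gimap3* is the larger component. The log2 fold change of the sum was 0.31 (SE 0.14), with an unadjusted p of 0.0513 and an adjusted p of 0.7.

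*Gimap4* was at 535, 579 and 681 CPM in OGT-sufficient cells and at 812, 681 and 535 CPM in OGT-deficient cells, and the groups overlapped. *Gimap6*, whose protein binds the autophagy protein GABARAPL2, was at 330, 321 and 348 CPM against 412, 370 and 298 CPM. Here the OGT-deficient samples lay on both sides of the OGT-sufficient ones. *Gimap9* was at 86.2, 98.5 and 92.5 CPM against 114, 102 and 95.8 CPM, with overlap through OGT-deficient replicate 3. The log2 fold changes were 0.18 (SE 0.17) for *Gimap4*, 0.11 (SE 0.14) for *Gimap6* and 0.17 (SE 0.12) for *Gimap9*, with adjusted p-values of 0.861, 0.892 and 0.789. Without OGT-deficient replicate 1 they were 0.02, 0.0047 and 0.10, and without OGT-deficient replicate 3 they were 0.35, 0.27 and 0.26. Without OGT-sufficient replicate 3 that of *Gimap4* was 0.29.

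*Gimap1*, which peripheral B and T cells need, and *Gimap8*, the largest member, had means slightly lower in OGT-deficient cells. *Gimap1* was at 183, 184 and 167 CPM in OGT-sufficient cells and at 186, 162 and 145 CPM in OGT-deficient cells. *Gimap8* was at 203, 200 and 247 CPM against 239, 208 and 179 CPM. In both genes OGT-deficient replicate 1 was within or above the OGT-sufficient range and replicate 3 was the lowest of all. Their log2 fold changes were -0.11 (SE 0.12) and -0.06 (SE 0.14), with adjusted p-values of 0.877 and 0.944. That of *Gimap8* was above 0 when OGT-sufficient replicate 3 (0.06) or OGT-deficient replicate 3 (0.08) was left out.

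**Figure D3:**
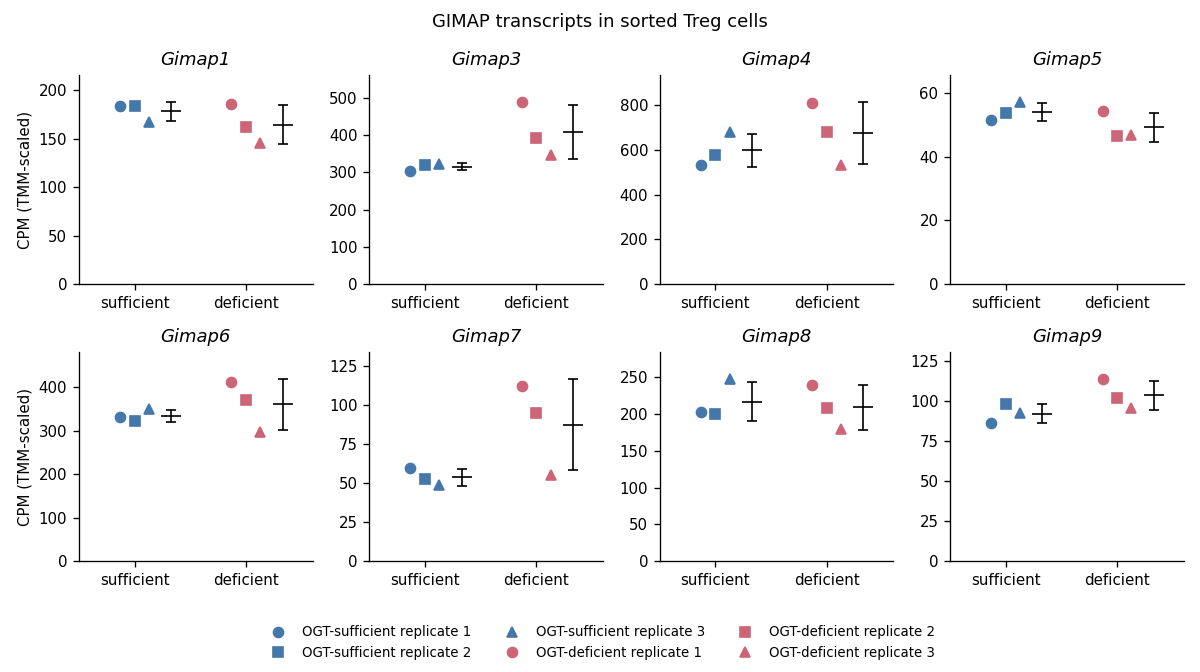
CPM of each GIMAP gene in each sample (axes start at 0), with the mean and SD of the 3 OGT-sufficient and the 3 OGT-deficient samples. *Gimap3* is the member without overlap between the groups, and OGT-deficient replicate 1 is the highest OGT-deficient sample in all 8 panels.

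The OGT-deficient libraries differed from each other in a like manner across the family. OGT-deficient replicate 1 was the highest of its group in 8 of 8 members, against 34.6% of all genes tested, and replicate 3 was the lowest in 7 of 8, against 34.8%. The members share these libraries, so that they do not count as separate observations. The coefficient of variation was larger in OGT-deficient than in OGT-sufficient cells for 8 of 8 members, against 41.6% of all genes. Its median over the members was 6.02% in OGT-sufficient and 15.2% in OGT-deficient cells, while the medians over all genes were 16.4% and 13.3%. The median level of the members was 192 CPM, against 24.0 CPM over all genes tested, and the comparison was not matched for level. The summed level of the family was 1752, 1808 and 1964 CPM in OGT-sufficient cells and 2417, 2054 and 1701 CPM in OGT-deficient cells. The highest and the lowest sum were thus both in OGT-deficient cells.

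The summed level of *Cd3d*, *Cd3e* and *Cd3g*, which encode the signalling chains of the T-cell receptor, moved with that of the family among the OGT-deficient libraries. It was 954, 902 and 695 CPM in OGT-sufficient cells and 1201, 1066 and 817 CPM in OGT-deficient cells. Among the OGT-sufficient libraries the *Cd3* sum fell from replicate 1 to replicate 3, while the family sum rose. The family came to 1.84, 2.01 and 2.83 times the *Cd3* sum in OGT-sufficient cells and to 2.01, 1.93 and 2.08 times in OGT-deficient cells. The OGT-deficient ratios lay close together, within the OGT-sufficient range. The macrophage markers were at 3893, 3424 and 1842 CPM in OGT-sufficient cells and at 1368, 4813 and 5565 CPM in OGT-deficient cells, lowest in the library with the highest family sum. None of the 10 had an unadjusted p under 0.05. The part of these cells in the GIMAP values was not tested. *Gimap7* came to 6.25%, 5.83% and 7.01% of the *Cd3* sum in OGT-sufficient cells and to 9.30%, 8.89% and 6.78% in OGT-deficient cells. On this scale too, OGT-deficient replicates 1 and 2 were above all other libraries and replicate 3 was not. When all counts were scaled to the *Cd3* genes, the log2 fold change of *Gimap7* was 0.39 (unadjusted p of 0.147) and that of *Gimap3* 0.07 (unadjusted p of 0.765). That scaling moved the median of all genes from -0.02 to -0.28, and the median of the members from 0.14 to -0.17.

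**Figure D4:**
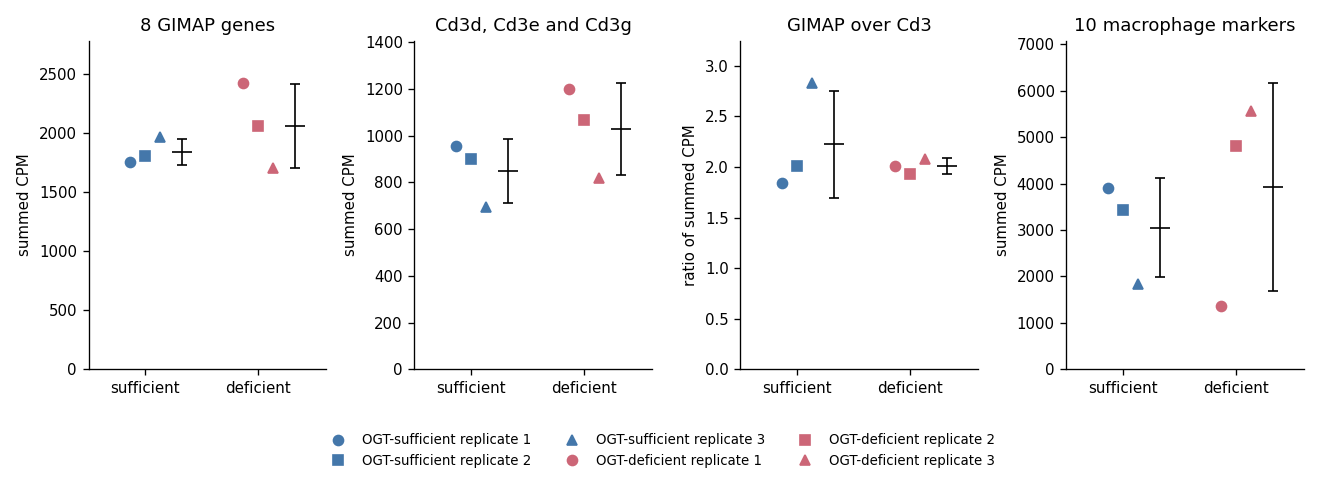
Summed CPM of the 8 GIMAP genes, summed CPM of the *Cd3* genes, their ratio, and summed CPM of 10 macrophage markers, by sample, with group mean and SD (n = 3). OGT-deficient replicate 1 has the highest GIMAP and *Cd3* sums and the lowest macrophage sum, and the OGT-deficient ratios lie between 1.93 and 2.08.

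The share of each member in the summed GIMAP counts of a library does not depend on the scaling of libraries. *Gimap3* took 17.3%, 17.7% and 16.4% in OGT-sufficient cells and 20.2%, 19.0% and 20.4% in OGT-deficient cells, without overlap. *Gimap5* took 2.95%, 2.97% and 2.91% against 2.25%, 2.27% and 2.75%, also without overlap but lower in OGT-deficient cells. How reads that match both *Gimap3* and *Gimap5* were counted is not stated, so their separate shares are uncertain to that extent. The share of their sum was not computed. *Gimap8* took 11.6%, 11.1% and 12.6% against 9.89%, 10.1% and 10.5%, again lower without overlap. The share of *Gimap7* was 3.40%, 2.91% and 2.48% against 4.62%, 4.61% and 3.25%, and overlapped through OGT-deficient replicate 3. The shares of *Gimap1*, *Gimap4*, *Gimap6* and *Gimap9* overlapped as well. Shares of a library sum to the whole, so that a higher share of 1 member lowers the others, and an exact permutation test of 3 samples against 3 cannot give a two-sided p below 0.1. In CPM, *Gimap5* and *Gimap8* overlapped between the groups, and 13.2% of all genes had no overlap in either direction. A like background for shares was not computed.

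**Figure D5:**
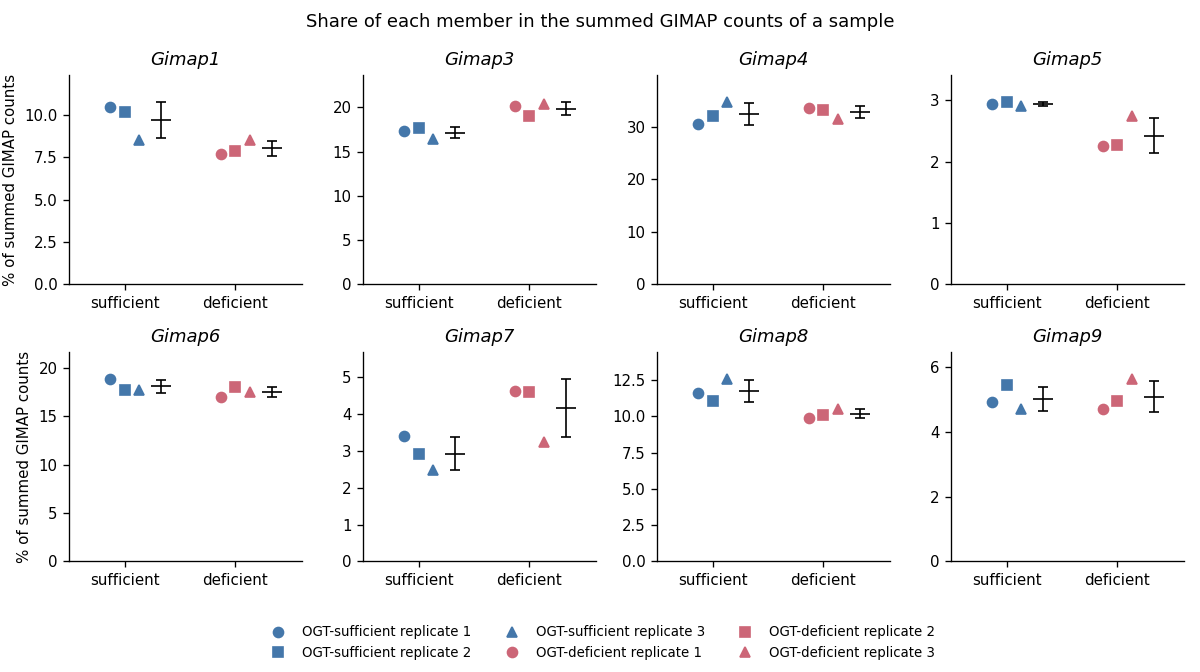
Share of each GIMAP gene in the summed GIMAP counts of a sample, in percent (axes start at 0), with group mean and SD (n = 3). The share of *Gimap3* is higher and those of *Gimap5* and *Gimap8* are lower in OGT-deficient samples without overlap, while the CPM values of *Gimap5* and *Gimap8* overlap. How reads that match both *Gimap3* and *Gimap5* were counted is not stated.

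The promoters of *Gimap7* and *Gimap3*, the members with an unadjusted p under 0.05, are shown with the motifs found in them in capitals. Each window of 300 bases spans the transcript start, most of it upstream, on the strand of the gene, from RefSeq GRCm38.p6. All 8 members matched, with 9 windows in all because *Gimap8* has 2. The *Gimap7* window (chr6:48718371-48718670, plus strand) held RUNX (TGTGGT, as its reverse complement), STAT (TTCNNNGAA) and TCF/LEF (CTTTGA), where the last lies inside the STAT match.
Gimap7: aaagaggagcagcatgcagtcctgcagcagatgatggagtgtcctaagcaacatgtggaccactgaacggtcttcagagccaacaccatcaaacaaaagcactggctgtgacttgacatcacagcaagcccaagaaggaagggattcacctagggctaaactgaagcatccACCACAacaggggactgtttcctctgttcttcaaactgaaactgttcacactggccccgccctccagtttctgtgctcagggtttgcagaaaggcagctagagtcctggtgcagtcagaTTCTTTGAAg
The *Gimap3* window (chr6:48770802-48771101, minus strand) held FOXO (GTAAACA), KLF (CCACCC, on both strands) and STAT.
Gimap3: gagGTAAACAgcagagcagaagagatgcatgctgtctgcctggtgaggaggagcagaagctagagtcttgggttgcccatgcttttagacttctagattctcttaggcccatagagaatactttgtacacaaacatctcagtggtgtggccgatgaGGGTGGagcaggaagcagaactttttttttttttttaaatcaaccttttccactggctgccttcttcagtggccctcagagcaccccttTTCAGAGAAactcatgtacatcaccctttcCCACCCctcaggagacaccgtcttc
The motifs were searched on both strands. Among all 32851 RefSeq promoter windows of this length, 16.8% held RUNX, 8.3% STAT, 16.0% TCF/LEF, 3.65% FOXO and 31.5% KLF. STAT letters were found in 4 of the 9 GIMAP windows (*Gimap3*, *Gimap6*, *Gimap7* and 1 window of *Gimap8*), and FOXO letters in that of *Gimap3*. RUNX was also found in *Gimap1* and *Gimap4*, TCF/LEF in *Gimap4*, and KLF in *Gimap4*, *Gimap5*, *Gimap9* and 1 window of *Gimap8*. The ETS core GGAAGT was in *Gimap1*, *Gimap5*, *Gimap6* and *Gimap9* and in 23.8% of all windows.

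Genes of resting T cells, which act in the recirculation and survival of T cells, were next compared. Of 12 tested, 4 had an unadjusted p under 0.05 and were higher in OGT-deficient cells and none was lower, against 3.09% and 4.01% of all genes. The list was chosen with earlier results of these data known, so that these counts are a description only. None of the 12 passed an adjusted p of 0.1. *Klf2*, a transcription factor of T-cell trafficking, had a log2 fold change of 0.52 (SE 0.14, adjusted p of 0.405). *Bcl2*, an inhibitor of cell death, was at 0.36 (SE 0.12, adjusted p of 0.565), and *Ccr7*, a chemokine receptor for lymph node entry, at 0.31 (SE 0.12, adjusted p of 0.668). The median of the list was 0.20, against -0.02 over all genes and 0.14 for the GIMAP members. The 9 Treg and CD4 T-cell markers had a median of 0.24, with 8 above 0 and 1 higher at an unadjusted p under 0.05. When all counts were scaled to the *Cd3* genes, 35 genes of the whole table were higher and 714 lower at that p, against 338 and 439 as reported.

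Genes for partners linked to GIMAP proteins were also described by list, and none passed an adjusted p of 0.1. Of 12 autophagy genes of the LC3 and GABARAP system, to which *Gimap6* is tied, none had an unadjusted p under 0.05, and *Gabarapl2* had a log2 fold change of 0.40 (SE 0.29, adjusted p of 0.791). Of 5 genes of GSK3 and beta-catenin, a kinase and its target in a pathway that GIMAP5 acts on, 1 (*Gsk3a*) had an unadjusted p under 0.05 and was lower, against 4.01% of all genes, with a log2 fold change of -0.44 (SE 0.13, adjusted p of 0.517), from 35.8 ± 2.16 to 26.4 ± 0.516 CPM (SD, n = 3). *Gsk3b* was at -0.01 and *Ctnnb1* at 0.03, and neither had an unadjusted p under 0.05.

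Of the protein-coding genes beside the cluster, *Lrrc61* was highest, at 12.8 to 27.5 CPM, against a median of 24.0 CPM over all genes tested. Of 10 in RefSeq, 5 on each side, 5 were tested and none had an unadjusted p under 0.05. *Lrrc61* was at 0.40 (SE 0.23, adjusted p of 0.755), *Repin1* at -0.64 (SE 0.37, adjusted p of 0.755), *Zfp775* at -0.08, *Tmem176b* at 0.11 and *Tmem176a* at -0.01 on the log2 scale. *Rarres2*, *Gm5111* and *Aoc1* had 5, 3 and 1 counts in all libraries together, whereas each GIMAP gene had at least 179 counts in every library. *Gm7932* and *Doxl1* were not in the count table.

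The genes most like the mean GIMAP profile, by Pearson's r over the 6 libraries and given as a description only, were *Elf1* (0.994), *Add3* (0.993), *Ptma* (0.976), *Cd37* (0.969) and *Dnajc2* (0.968). Of 10941 genes, 12 had an r above 0.95, and all points share their libraries and depth. *Elf1*, an ETS transcription factor of lymphocytes, was at 306, 309 and 312 CPM in OGT-sufficient cells and at 343, 316 and 292 CPM in OGT-deficient cells. It varied more among OGT-deficient than among OGT-sufficient libraries. The gene was picked by its likeness to the family over these same libraries, so this is no separate observation. *Cd37*, a leukocyte tetraspanin, was at 87.3, 88.5 and 87.0 CPM against 113, 94.2 and 76.0 CPM. The adjusted p-values of these 5 genes were between 0.899 and 0.974.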

How the data were processed

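RNA of sorted YFP+ Treg cells in 6 samples was sequenced as 2x50 paired-end reads. Per the labels, the authors trimmed with Trimmomatic 0.33, aligned with Bowtie2 2.2.4.0 to mm10, and used featureCounts and edgeR, while the methods of the study name Cuffquant for quantification. The deposited table holds whole-number counts per gene symbol and sample, without normalization. The p-value, FDR, fold and mean columns of the authors' own comparison were not used. Annotation, strand setting and what was done with reads that match several genes are not given in the sources used here.

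Groups follow the genotype label of each sample. Counts were tested with edgeR 4.0.16 in R 4.3.3 (TMM, filterByExpr with a minimum count of 10, quasi-likelihood test, Benjamini-Hochberg adjustment over the 10949 genes tested), checked on simulated data. Standard errors (SE) are the absolute log2 fold change divided by the square root of the quasi-likelihood F statistic. Median biological coefficient of variation was 0.159. Nothing says whether each sample was 1 mouse or a pool, so p-values measure the spread between these samples. No 2 replicates were the same library: chi-square per degree of freedom between them was 3.46 to 24.2. Coordinates are from GENCODE M21 and promoters from RefSeq, both GRCm38. DESeq2 1.42.0, other scalings and filters, a replicate block, and leaving out each sample were tried. Scaling to *Cd3* genes and the sum of *Gimap3* and *Gimap5* were chosen after seeing the data. The members and gene lists were chosen with earlier results of these data known. The genes named are the members, *Ogt*, overlapping genes and neighbours of the cluster, up to 4 genes of lowest p per list, and the 5 genes most like the family; *Gsk3b* and *Ctnnb1* are among these, and the single endothelial and macrophage markers and *Rn45s* were named after their values were seen. Of the resting T-cell list, 1 gene is not reported here by name.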

Additional observations from a re-analysis of the deposited data

How the results depend on the processing

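The lowest GIMAP count in a library was 179. The number of genes at an adjusted p under 0.1 was 3 as reported, 38 with DESeq2, 80 with edgeR's exact test, 131 without the low-count filter, 0 with the replicate number as a block (679 genes at an unadjusted p under 0.05) and 0 with scaling to the *Cd3* genes (749). At an unadjusted p under 0.05 there were 777 genes as reported, 452 with DESeq2 and 1208 without the filter. Without the filter, 1 member (*Gimap7*, 0.0286) had an adjusted p under 0.1, the only setting in which any member did. The members at an unadjusted p under 0.05 numbered 2 as reported, 1 with library size only, 1 with the replicate block (*Gimap3* then 0.0505) and 0 with scaling to the *Cd3* genes, where the median of the members was -0.17 and *Gimap4* (-0.15), *Gimap6* (-0.19) and *Gimap9* (-0.11) changed sign. With that scaling the median of all genes tested moved as well, from -0.02 to -0.28, so the shift was not particular to the members. Why the *Cd3* sum differed between libraries was not tested. Genes lower and higher at an unadjusted p under 0.05 numbered 439 and 338 as reported, 432 and 215 with library size only, 385 and 386 with DESeq2's size factors, 219 and 233 with DESeq2, and 714 and 35 with scaling to the *Cd3* genes.

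Leaving out each sample gave 0 to 9 genes at an adjusted p under 0.1, with 9 without OGT-sufficient replicate 3 and 0 without OGT-deficient replicate 2 or 3. It gave 462 to 889 genes at an unadjusted p under 0.05, with 462 without OGT-deficient replicate 2, and 0 to 2 members, with 0 without OGT-deficient replicate 1. The median log2 fold change of the members ran from 0.01 without OGT-deficient replicate 1 to 0.26 without replicate 3. *Gimap8* ran from -0.16 to 0.080 and *Gimap1* from -0.21 to 0.0010, both above 0 without OGT-deficient replicate 3. Over the 15 alternatives, *Gimap7* ran from 0.39 to 0.98 (unadjusted p under 0.05 in 13, adjusted p 0.0286 to 0.997), *Gimap3* from 0.07 to 0.51 (in 9, adjusted p 0.332 to 1.0) and *Ogt* from -1.496 to -0.94 (in 15, adjusted p 1.62e-05 to 0.764). Same-numbered replicates did not deviate together (correlations of -0.28, 0.0071 and -0.12), so the block carries only a number.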

Other observations

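Septins, filament-forming GTPases of the cytoskeleton, are related to the GIMAP proteins within the GTPases. Of 12 septin genes, 8 were tested and 1 had an unadjusted p under 0.05, against 7.1% of all genes: *Sept1*, at 207 ± 13.8 CPM in OGT-sufficient and 256 ± 27.6 CPM in OGT-deficient cells (SD, n = 3). Its log2 fold change was 0.30 (SE 0.12, adjusted p of 0.668 in edgeR's quasi-likelihood test), without overlap between the groups (13.2% of all genes have none), and the median of the 8 was 0.05.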
